A study of Mus musculus with 92 samples.

Results

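The genes described here are 10 that make and desaturate fatty acids, chosen by symbol from a list of members and followed through all tissues and cultures of a mouse study of the translation initiation factor Eif4g2. All 10, of 54532 genes in the count tables, were found and passed the filter on low counts in each of the 19 comparisons between groups and 4 comparisons of effects. RNA was sequenced in 92 libraries of 21 groups, with 8652040 to 37611126 counts per library. Crypts and villi came from mice carrying a tamoxifen-activated Cre recombinase (CreER) at Rosa26, which is active in many cell types, or under Vil1, which is active in the intestinal epithelium. Homozygous mice were Eif4g2(flox/flox) and their heterozygous controls Eif4g2(flox/+), so that the controls too had CreER, received tamoxifen and could lose 1 copy. The Rosa26(CreER) tissue was collected on day 9 (4 homozygous and 5 heterozygous crypt libraries, 5 and 5 villus libraries), and the Vil1(CreER) tissue at 3 months (3 and 4 crypt, 6 and 4 villus libraries), after 4 daily injections of 100 mg/kg tamoxifen; the dose for the first is not given in the sources used here. Organoids and spheroids carried Rosa26(CreER). In a first organoid set 3 Eif4g2(flox/flox) lines received DMSO or 0.5 uM 4-hydroxytamoxifen (4-OHT, which activates CreER) for 24 hours and were collected on day 6. A second set held 4 flox/flox, 4 flox/+ and 4 Eif4g2(+/+) lines, the last called CreER-only here, all with 4-OHT in the same way. Fetal intestinal spheroids of 6 flox/flox and 5 flox/+ lines received DMSO or 4-OHT likewise. All cultures were in ENR medium (EGF, Noggin and R-spondin). In the inhibitor series 4 organoid lines, 1 of them Eif4g2(+/+) and 3 flox/flox without 4-OHT, were grown for 4 days with DMSO or with 3, 5 or 10 uM A-485, an inhibitor of the acetyltransferases p300 and CBP.

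Fatty acids are built in the cytosol from acetyl-CoA. ATP citrate lyase (Acly) makes that acetyl-CoA from citrate, acetyl-CoA carboxylase (Acaca) turns it into malonyl-CoA, fatty acid synthase (Fasn) joins the units into palmitate with NADPH that malic enzyme (Me1) helps to supply, and Elovl6 lengthens palmitate. Stearoyl-CoA desaturases (Scd1, Scd2) place the first double bond and so make oleate and palmitoleate, whereas Fads1 and Fads2, the delta-5 and delta-6 desaturases, work on the essential fatty acids of the diet and lead to arachidonic acid and other polyunsaturated products. Srebf1 encodes the transcription factor SREBP-1, which drives most of these genes, and its relative SREBP-2 drives sterol synthesis. In the intestine, crypts hold dividing cells that need membrane lipid, and villi hold enterocytes that absorb fat from food.

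By the coordinates in the tables (GRCm38), 4 of the 10 genes are on chromosome 19 and 4 on chromosome 11. Scd2 (19, 44293676 to 44306864, plus strand) and Scd1 (19, 44394451 to 44407709, minus strand) are 87587 bases apart, and Fads2 (19, 10064164 to 10101503, minus) and Fads1 (19, 10182888 to 10196870, plus) are 81385 bases apart. Srebf1 (11, 60199089 to 60222581), Acly (11, 100476353 to 100528000) and Fasn (11, 120805846 to 120824547) are on the minus strand, and Acaca (11, 84129672 to 84401651) on the plus strand. Elovl6 is at 3, 129532355 to 129638495 (plus), and Me1 at 9, 86581371 to 86695953 (minus). A gene on the other strand overlaps Acaca (Gm11437), Srebf1 (Rai1), Elovl6 (Gm35986) and Me1 (A330041J22Rik). The counting rule for strand is not given in the sources used here, so reads in those overlaps are uncertain, as are reads shared among the closely similar Scd genes.

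RefSeq's promoter table (GRCm38.p6; 250 bases before to 50 after a start) held 10 entries for 7 of the 10 genes. They were searched on both strands for CCAAT (the box bound by NF-Y, a common partner of SREBP), TCACNCC (part of the sterol regulatory element) and CACGTG (the E-box). CCAAT was in an entry of 4 genes (Fasn, Acly, Srebf1 and Me1), and 37.4% of all 32851 promoters of that length hold it. TCACNCC and CACGTG were in none of the 10 entries, against 15.6% and 7.15% of all promoters, which says only that these letters are not in these windows. Fasn and Fads2 are printed because both genes fell with A-485 while they moved in opposite directions in Vil1-CreER crypts, and Acaca because it rose together with Fasn in villi. Capitals mark CCAAT or its reverse complement ATTGG. The Fasn window (chr11:120824498-120824797, minus strand) has 3 matches, beginning 90, 62 and 59 bases before the start, of which the last 2 overlap. The windows of Fads2 (chr19:10101454-10101753, minus strand) and Acaca (chr11:84195188-84195487, plus strand) have none, and the Acaca entry lies inside that gene as the tables place it.
Fasn: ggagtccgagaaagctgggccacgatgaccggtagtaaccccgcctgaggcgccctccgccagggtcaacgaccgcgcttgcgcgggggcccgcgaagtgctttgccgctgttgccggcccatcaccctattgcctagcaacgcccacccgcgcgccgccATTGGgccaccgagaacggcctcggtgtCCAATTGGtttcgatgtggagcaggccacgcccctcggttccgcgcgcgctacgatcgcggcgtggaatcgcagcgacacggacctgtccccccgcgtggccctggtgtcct
Fads2: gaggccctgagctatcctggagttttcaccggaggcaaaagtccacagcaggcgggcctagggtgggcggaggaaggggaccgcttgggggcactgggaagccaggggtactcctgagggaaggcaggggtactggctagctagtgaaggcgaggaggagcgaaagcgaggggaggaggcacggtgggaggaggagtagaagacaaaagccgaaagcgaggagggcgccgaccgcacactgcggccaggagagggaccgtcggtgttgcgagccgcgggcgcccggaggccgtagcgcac
Acaca: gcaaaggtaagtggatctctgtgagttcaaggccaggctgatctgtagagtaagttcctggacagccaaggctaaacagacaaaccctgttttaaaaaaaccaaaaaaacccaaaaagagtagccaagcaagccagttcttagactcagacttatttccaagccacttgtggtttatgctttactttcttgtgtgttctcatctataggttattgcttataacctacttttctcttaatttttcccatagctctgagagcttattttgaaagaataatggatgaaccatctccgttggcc

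Levels are CPM, counts scaled to the library total after TMM scaling within an experiment. Genes are compared with each other per kilobase of the tables' gene length (CPM/kb), which removes the effect of length. Differences are fitted log2 fold changes with their standard error (SE), and folds are their linear form. A gene is called at an adjusted p under 0.05 in edgeR's quasi-likelihood test with Benjamini-Hochberg adjustment over all genes tested, and every adjusted p comes from that test unless DESeq2 is named. Eif4g2 was lower in every library with both copies floxed and recombined than in any library of its control group. Its log2 fold change was -1.98 in Rosa26-CreER crypts, -2.70 in their villi, -0.99 and -1.37 in Vil1-CreER crypts and villi, -2.37 in organoids of the first set and -2.82 in flox/flox spheroids. Tissue libraries are bulk RNA, in which fewer cells of a type and less RNA per cell cannot be told apart. Of 8 adipocyte markers, Adipoq reached at most 0.195 CPM and Plin1 at most 0.234 CPM in any crypt or villus library, and both were at 0 in 30 and 29 of the 36. Cfd, Lep and Retn stayed at or under 0.702 CPM. Fabp4 reached 2.73 CPM and was at 0 in 3 of the 36, and Plin4 reached 0.468 CPM and was at 0 in 13. In villi Cidec, which they also express, made up nearly all of that list's sum and reached 236 CPM. The sum was 1.31 to 16.5 CPM over the crypt libraries.

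In heterozygous mice the genes split along the crypt-villus axis. Fads1, Fads2, Scd2, Fasn, Acaca and Acly were higher in crypts of both kinds of mice, and Me1 and, with TMM scaling, Srebf1 were higher in villi. All 10 genes were called in Rosa26-CreER mice and 8 in Vil1-CreER mice. The background was large: in the first 77.1% of the 14793 genes tested were called (36.4% higher, 40.6% lower), and in the second 67.9% of the 15757 genes tested were called (32.7% higher, 35.2% lower). Fads2 and Fads1 had the largest falls towards the villus. Fads2 had 197, 221, 181, 165 and 189.7 CPM in the 5 heterozygous Rosa26-CreER crypt libraries and 9.30, 9.51, 16.2, 13.7 and 5.68 CPM in the villi of the same animals. Fads1 had 127, 144, 113, 105 and 113 CPM in those crypts and 3.76, 3.82, 11.0, 5.59 and 2.34 CPM in those villi. Neither gene overlapped between crypts and villi, and the log2 differences were -4.13 ± 0.25 (adjusted p 2.43e-08) and -4.52 ± 0.35 (adjusted p 2.46e-07). In Vil1-CreER mice they were -4.24 ± 0.29 (adjusted p 1.63e-06) and -4.18 ± 0.23 (adjusted p 2.74e-07).

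Scd2 was 9.05-fold lower in villi than in crypts of Rosa26-CreER mice and 4.37-fold lower in Vil1-CreER mice. Fasn was 5.21-fold and 4.95-fold lower, Acaca 4.98-fold and 3.76-fold lower, and Acly 3.10-fold and 2.70-fold lower in the same order. All of these were called. The size of these falls depends on the scaling. Without TMM the Acaca means were 65.1 CPM in crypts and 6.77 CPM in villi with Rosa26-CreER, and 56.4 and 9.72 CPM with Vil1-CreER. Those of Acly were 190 and 31.5 CPM, and 150 and 36.4 CPM, so both falls were larger. Me1 went the other way, from 8.48 ± 0.938 CPM (SD, n = 5) in crypts to 109.6 ± 25.8 CPM (SD, n = 5) in villi of Rosa26-CreER mice, a log2 difference of 3.70 ± 0.18 (adjusted p 4.36e-09), and 2.15 ± 0.44 (adjusted p 0.00242) in Vil1-CreER mice. Srebf1 was 2.01-fold and 1.56-fold higher in villi, but this rests on the scaling: without TMM its means were 155 CPM in crypts and 161 CPM in villi of Rosa26-CreER mice, and 85.6 CPM and 88 CPM in Vil1-CreER mice. Elovl6 was 3.18-fold higher in villi of Rosa26-CreER mice, whereas in Vil1-CreER mice it had 119 ± 38.3 CPM (SD, n = 4) in crypts and 115 ± 37.9 CPM (SD, n = 4) in villi, which overlapped. Without TMM the Elovl6 means were 102 and 166 CPM with Rosa26-CreER and 152 and 92.2 CPM with Vil1-CreER, and those of Me1 were 12 and 81.1 CPM and 13.3 and 38.9 CPM. Scd1 was called lower in Rosa26-CreER villi (-1.33 ± 0.50, adjusted p 0.0285), a call lost without any of 4 single libraries (crypt replicates 1 and 4, villus replicates 2 and 5). In Vil1-CreER mice its crypt libraries spread from 1.89 to 144 CPM and it was not called (-2.83 ± 1.31, adjusted p 0.0932), although with the animal as a block it was, at -2.22 (adjusted p 0.00764).

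Per kilobase, Fads2 was the most abundant of the 10 genes in heterozygous Rosa26-CreER crypts, at 126 ± 13.8 (SD, n = 5) CPM/kb. Scd2 (42.8 ± 19.8, SD, n = 5), Fads1 (34.8 ± 4.49, SD, n = 5) and Acly (25.3 ± 2.29, SD, n = 5) came next, Scd2 overlapping the other two and Fads1 lying above Acly in each library. Scd1 (3.01 ± 2.06, SD, n = 5), Acaca (2.70 ± 0.467, SD, n = 5) and Me1 (2.20 ± 0.244, SD, n = 5) were lowest. In the villi of these mice the order was led by Srebf1 (39.0 ± 10.1, SD, n = 5), Elovl6 (35.3 ± 9.19, SD, n = 5) and Me1 (28.5 ± 6.70, SD, n = 5), whose libraries overlapped, and Acaca was lowest (0.537 ± 0.0715, SD, n = 5). In Vil1-CreER mice Fads2 also led in crypts and Srebf1 in villi, and Acaca was lowest in both. In culture Scd2 led instead: it had 424 ± 23.3 (SD, n = 3) CPM/kb in DMSO organoids of the first set, 663 ± 49.9 (SD, n = 4) in those of the inhibitor series and 258 ± 44.2 (SD, n = 5) in flox/+ spheroids with DMSO, each the highest of the 10 genes there.

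**Figure D1:**
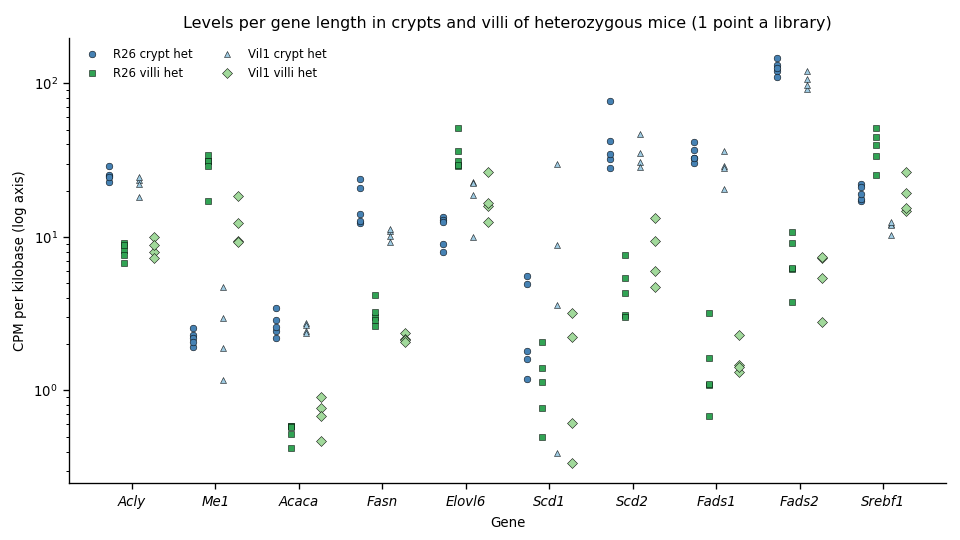
CPM per kilobase of gene length (log axis) of the 10 genes in crypts (blue) and villi (green) of heterozygous mice, 1 point a library, 5 animals with Rosa26-CreER (R26) and 4 with Vil1-CreER. Fads1, Fads2, Scd2, Fasn, Acaca and Acly lie lower in villi without overlap in both drivers, and Me1 and Srebf1, the latter resting on TMM scaling, lie higher.

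After loss of both Eif4g2 copies, Scd2 rose in all 4 tissue comparisons and Scd1 in 3 of them, while Fads1 fell in 3. In Rosa26-CreER crypts 5 of the 10 genes were called, 3 higher (Scd1, Scd2, Me1) and 2 lower (Fads1, Fads2), where 20.2% of the 15846 genes tested were called (8.63% higher, 11.6% lower). In Rosa26-CreER villi 4 were called, all higher (Scd1, Scd2, Fasn, Acaca), where 33.2% of the 13579 genes tested were called (15.0% higher, 18.2% lower). In Vil1-CreER crypts 5 were called, 3 higher (Scd2, Fasn, Acaca) and 2 lower (Fads1, Fads2), where 29.3% of the 16954 genes tested were called (11.6% higher, 17.7% lower). In Vil1-CreER villi 6 were called, 5 higher (Scd1, Scd2, Fasn, Acaca, Elovl6) and 1 lower (Fads1), where 42.5% of the 15107 genes tested were called (20.9% higher, 21.6% lower). Acly and Srebf1 were not called in any of these 4 comparisons.

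Scd1 had 6.80, 3.73, 10.0, 5.48 and 2.39 CPM in the 5 heterozygous Rosa26-CreER villus libraries and 139.7, 45.4, 248, 178 and 120.2 CPM in the 5 homozygous ones. Every homozygous library was above every heterozygous one, with a fitted 24.8-fold rise, a log2 fold change of 4.63 ± 0.53 (adjusted p 0.000244). In Vil1-CreER villi Scd1 had 10.7, 15.5, 2.96 and 1.63 CPM in heterozygous libraries and 38.2 to 124 CPM (median 60.8) over the 6 homozygous ones. The groups did not overlap there either, with a log2 fold change of 3.17 ± 0.64 (adjusted p 0.00363). In Rosa26-CreER crypts the gene had 23.8, 8.72, 5.72, 26.9 and 7.70 CPM in heterozygous and 105, 127, 66.2 and 12.7 CPM in homozygous libraries. Those groups overlapped, since homozygous replicate 5 lay among the controls. The change of 2.50 ± 0.69 (adjusted p 0.033) was not called without any 1 of 6 libraries (homozygous replicates 1, 3 and 4 and heterozygous replicates 2, 3 and 5; log2 fold changes from 2.15 to 2.52), without the low-count filter, with the replicate number as a block and with a term for Y-linked transcripts. In Vil1-CreER crypts the heterozygous libraries had 42.9, 144, 17.4 and 1.89 CPM and the homozygous ones 89.1, 114 and 71.5 CPM. The controls spanned the homozygous values and the difference was not called (0.83 ± 1.18, adjusted p 0.636).

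Scd2, the form known from brain and from growing tissue, was called in all 4 tissue comparisons. It had 29.2, 16.9, 41.8, 23.3 and 16.3 CPM in heterozygous and 359.7, 425, 663, 289.5 and 103 CPM in homozygous Rosa26-CreER villi, and the change was 3.79 ± 0.49 (adjusted p 0.000457). In Vil1-CreER villi it had 72.6, 51.6, 32.8 and 25.8 CPM in controls and 289 to 789 CPM (median 384) in homozygous mice, a change of 3.26 ± 0.36 (adjusted p 2.71e-05). Villus groups did not overlap for either driver. In Rosa26-CreER crypts the values were 420.0, 176, 154, 228 and 189.6 CPM against 1049, 623, 614 and 403 CPM, which overlapped through heterozygous replicate 1, and the change was 1.60 ± 0.36 (adjusted p 0.0152). In Vil1-CreER crypts they were 191, 255, 166 and 154 CPM against 576, 445 and 466 CPM, without overlap, and the change was 1.38 ± 0.18 (adjusted p 0.00122).

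Fads1, the delta-5 desaturase, moved the opposite way in crypts. It had 127, 144, 113, 105 and 113 CPM in heterozygous Rosa26-CreER crypts and 16.2, 21.7, 25.8 and 16.7 CPM in homozygous ones, a 5.73-fold lower level (log2 -2.52 ± 0.18, adjusted p 0.000114). In Vil1-CreER crypts it had 99.5, 70.6, 97.6 and 126 CPM against 7.16, 6.27 and 6.73 CPM, 14.6-fold lower (log2 -3.87 ± 0.21, adjusted p 4.58e-05). No library overlapped between the groups in either driver. In villi, where controls already had little of it, Fads1 had 3.76, 3.82, 11.0, 5.59 and 2.34 CPM in heterozygous and 3.22, 5.40, 7.30, 1.80 and 2.99 CPM in homozygous Rosa26-CreER mice, which overlapped and were not called. In Vil1-CreER villi 5.06, 4.53, 7.89 and 4.88 CPM stood against 0.917 to 5.23 CPM (median 1.90). That fall (-1.24 ± 0.41, adjusted p 0.0274) was called, but not without heterozygous replicate 3 (-1.04, adjusted p 0.0895) or homozygous replicate 3 (-1.17, adjusted p 0.0554).

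Fads2, the delta-6 desaturase, had 197, 221, 181, 165 and 189.7 CPM in heterozygous and 73.8, 67.0, 74.9 and 89.9 CPM in homozygous Rosa26-CreER crypts, and 162, 138, 146 and 181 CPM against 61.9, 63.2 and 63.7 CPM in Vil1-CreER crypts. Both falls were without overlap, at -1.27 ± 0.10 (adjusted p 0.000162) and -1.31 ± 0.10 (adjusted p 0.000127). In villi its means were higher in homozygous mice, 20.6 ± 8.34 CPM (SD, n = 5) against 10.9 ± 4.12 CPM (SD, n = 5) with Rosa26-CreER and 18.2 ± 10.5 CPM (SD, n = 6) against 8.59 ± 3.24 CPM (SD, n = 4) with Vil1-CreER. These groups overlapped, and neither difference was called (0.87 ± 0.32, adjusted p 0.0546 and 1.07 ± 0.42, adjusted p 0.0563). DESeq2's Wald test called both, at 0.88 (adjusted p 0.0177) and 1.05 (adjusted p 0.0174), as did a fit with crypts of the same set (adjusted p 0.00971 and 0.0242). With the replicate number as a block the Rosa26-CreER difference passed (adjusted p 0.0109), and with a term for Y-linked transcripts the Vil1-CreER one (adjusted p 0.0331). Each also passed without any 1 of 3 single libraries.

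**Figure D2:**
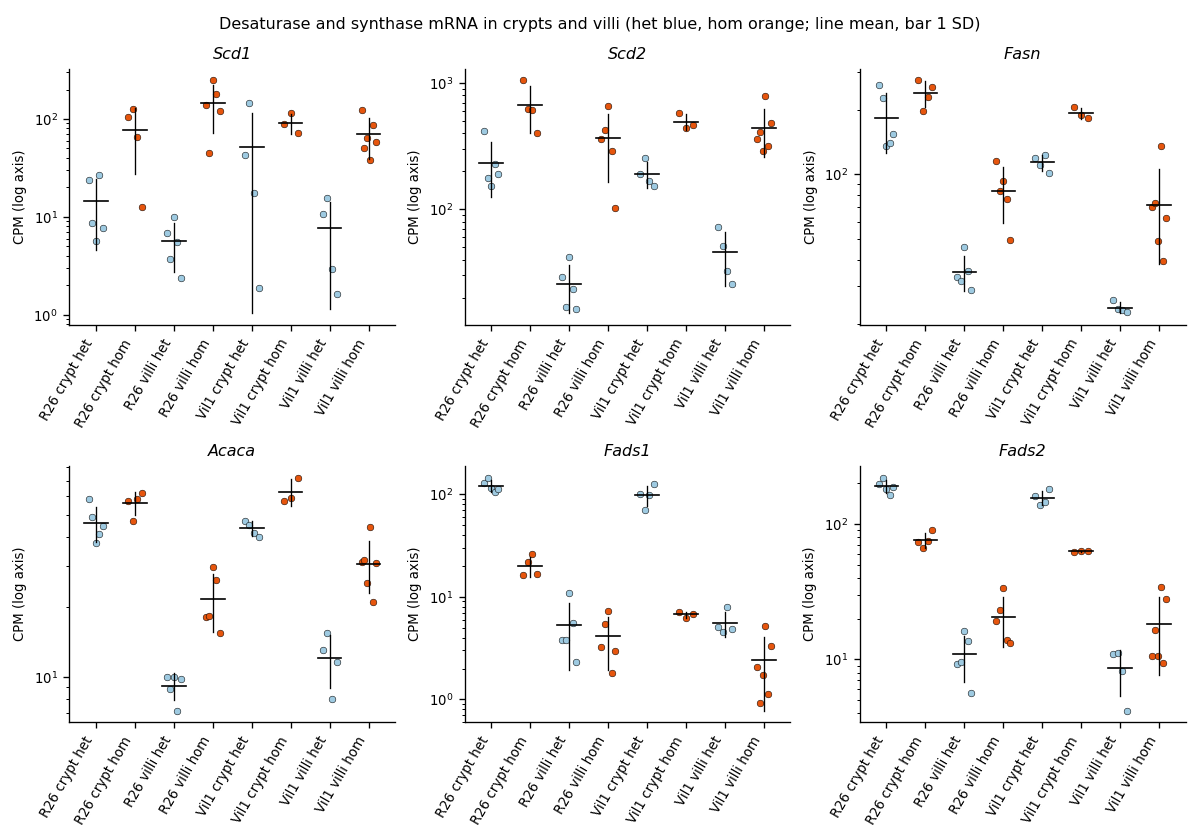
CPM (log axis) of 6 genes in each crypt and villus library of heterozygous (blue) and homozygous (orange) mice with Rosa26-CreER (R26) or Vil1-CreER, with the mean as a line and 1 SD as a bar (cut short where it would pass below 0). Within each driver, Scd1, Scd2, Fasn and Acaca of homozygous villi lie above all heterozygous villi, and Fads1 and Fads2 of homozygous crypts lie below all heterozygous crypts.

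Fasn and Acaca, which carry out chain building, rose together in villi. Fasn had 33.0, 31.6, 45.7, 35.2 and 28.8 CPM in heterozygous and 115, 83.2, 93.1, 76.2 and 49.4 CPM in homozygous Rosa26-CreER villi (1.20 ± 0.21, adjusted p 0.00158). Acaca had 10.0, 8.89, 9.98, 7.15 and 9.80 CPM and 18.2, 18.4, 29.6, 26.3 and 15.5 CPM in the same libraries (1.18 ± 0.19, adjusted p 0.000941). In Vil1-CreER villi Fasn rose 2.96-fold (1.57 ± 0.28, adjusted p 0.000918) and Acaca 2.52-fold (1.34 ± 0.21, adjusted p 0.000303). None of these 4 pairs of groups overlapped. In crypts the differences were smaller: 0.76 ± 0.09 (adjusted p 0.000664) for Fasn and 0.53 ± 0.10 (adjusted p 0.00582) for Acaca with Vil1-CreER, both without overlap, and no call with Rosa26-CreER. The Vil1-CreER crypt calls were lost when villi entered the same fit, at adjusted p 0.0601 and 0.0871.

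The other 4 genes were each called in at most 1 of the 4 tissue comparisons. Elovl6 was called in Vil1-CreER villi alone among the tissues, with 169, 80.7, 103 and 107 CPM in heterozygous and 146 to 312 CPM (median 196) in homozygous libraries, which overlapped (0.87 ± 0.23, adjusted p 0.0079). Me1 was called in Rosa26-CreER crypts alone, with 8.86, 9.83, 8.45, 7.37 and 7.91 CPM against 14.5, 13.5, 8.60 and 19.1 CPM (0.76 ± 0.19, adjusted p 0.0224), and lost the call without homozygous replicate 1 or heterozygous replicate 5 and with a term for Y-linked transcripts (0.86, adjusted p 0.0888). Acly stayed between 117 and 141 CPM in the means of the 4 crypt groups and between 42.8 and 53.2 CPM in those of the 4 villus groups. Srebf1 mRNA had 219.6 ± 57.1 CPM (SD, n = 5) and 314 ± 129 CPM (SD, n = 5) in heterozygous and homozygous Rosa26-CreER villi, and 107 ± 29.8 CPM (SD, n = 4) and 117 ± 11.6 CPM (SD, n = 6) in those of Vil1-CreER mice.

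The effect of genotype was then compared between villi and crypts as an interaction. In Rosa26-CreER mice 5 of the 10 genes differed, where 11.5% of 16495 genes did. On the log2 scale the signed villus effect minus the crypt effect was 2.32 ± 0.60 (adjusted p 0.0205) for Scd2 and 0.95 ± 0.24 (adjusted p 0.0184) for Acaca. It was 2.24 ± 0.51 (adjusted p 0.0121) for Fads1, 2.24 ± 0.37 (adjusted p 0.00144) for Fads2 and -1.43 ± 0.37 for Me1 (adjusted p 0.0201). In Vil1-CreER mice 3 genes differed, where 15.5% of 17821 did: Scd2 (1.90 ± 0.46, adjusted p 0.0131), Fads1 (2.67 ± 0.55, adjusted p 0.00696) and Fads2 (2.41 ± 0.55, adjusted p 0.011). Those 3 genes were called for both drivers. For Fads1 and Fads2 the positive terms go with falls in crypts. In villi Fads1 fell less with Vil1-CreER and was not called with Rosa26-CreER, and Fads2 was called with neither driver. Acaca was not called in Vil1-CreER mice (0.83 ± 0.28, adjusted p 0.0523) but passed under 9 alternatives, among them DESeq2's Wald test (adjusted p 0.0286) and no low-count filter (adjusted p 0.045). Scd1, with its variable crypt libraries, did not pass in either (2.27 ± 0.84, adjusted p 0.0849 and 2.37 ± 1.30, adjusted p 0.232), but did in Rosa26-CreER mice by DESeq2's Wald test (2.26, adjusted p 0.0279). With the animal as a block, since the library names give crypts and villi of the same animals, 6 genes passed in Vil1-CreER mice, Fasn, Acaca and Elovl6 being added, and Acaca lost its call in Rosa26-CreER mice (0.96, adjusted p 0.0601). The share of all genes called with that block is not given here, so the added calls cannot be told apart from a general gain in calls.

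Other features of the tissue moved with genotype. The summed level of 8 crypt stem and Paneth cell markers, all 8 of which had at least 1 CPM in every heterozygous crypt library, was at most 85.3 CPM in heterozygous Rosa26-CreER villi and 14212 to 19387 CPM in heterozygous and 1393 to 6298 CPM in homozygous Rosa26-CreER crypts. It was 7101 to 9911 CPM and 446 to 1047 CPM in Vil1-CreER crypts. The sum of 14 enterocyte markers, all at or above 1 CPM in all tissue libraries, was 76632 to 108209 CPM in heterozygous and 86851 to 131800.0 CPM in homozygous Rosa26-CreER villi, and 54695 to 70633 CPM and 51765 to 91882 CPM in Vil1-CreER villi. The 10 immune markers summed to 119.9 to 369.8 CPM and 78.2 to 222 CPM in Rosa26-CreER villi and to 247 to 433 CPM and 49.5 to 199 CPM in Vil1-CreER villi. In crypts the enterocyte sum was 3420.1 to 6900.5 CPM in heterozygous and 3969 to 14237 CPM in homozygous Rosa26-CreER mice, and 2779 to 6799 CPM and 1384 to 3050.1 CPM in Vil1-CreER mice, where 8 of 14 enterocyte markers were called lower. Immune sums in crypts were 109 to 382 CPM and 75.7 to 1655 CPM with Rosa26-CreER, and 69.3 to 603 CPM and 401 to 562 CPM with Vil1-CreER. The 10 stromal, smooth muscle and endothelial markers summed to 23.3 to 817 CPM and 36.5 to 1999.8 CPM, and to 7.33 to 51.5 CPM and 29.2 to 57.8 CPM, in the same order. The 8 markers of fetal-like epithelium summed to 10.3 to 115 CPM and 13.8 to 710.1 CPM, and to 5.08 to 24.2 CPM and 51.9 to 93.9 CPM, with 2 of them called higher in each crypt comparison. Mitochondrial genes took 18.9% of counts in homozygous and 8.55% in heterozygous Rosa26-CreER crypts, and 35.7% and 23.3% in Vil1-CreER crypts. Without mitochondrial genes in the tables, none of the calls in the 4 tissue comparisons was lost. Y-linked Ddx3y was above 1 CPM in all 5 heterozygous Rosa26-CreER animals but in 1 of 4 homozygous crypt and 2 of 5 homozygous villus libraries. The part of these shifts in the changes of the 10 genes was not tested. With a term for Y-linked transcripts, Scd1, Scd2, Fasn and Acaca of Rosa26-CreER villi and Fads1, Fads2 and Scd2 of Rosa26-CreER crypts kept their calls.

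In organoids the polyunsaturated desaturases fell again and Scd1 was not called higher. In the first set 3 of the 10 genes were called with 4-OHT, all lower (Fads1, Fads2, Scd1), where 35.4% of the 15297 genes tested were called (18.2% higher, 17.2% lower). Fads1 had 189, 169 and 176 CPM with DMSO and 54.1, 65.0 and 59.3 CPM with 4-OHT, lower in 3 of 3 lines and without overlap (-1.58 ± 0.09, adjusted p 0.000203). Fads2 had 248, 239.7 and 276 CPM and 125, 146 and 158 CPM, likewise (-0.84 ± 0.11, adjusted p 0.0017). Scd1 had 1059.7, 921 and 719 CPM with DMSO and 416, 702 and 549 CPM with 4-OHT. It was lower in 3 of 3 lines (-0.70 ± 0.21, adjusted p 0.0409), and the call was lost without any of 4 single libraries, among them replicate 1 with 4-OHT (-0.52, adjusted p 0.102). Scd2 (2315 ± 127 CPM, SD, n = 3 and 2211 ± 563 CPM, SD, n = 3), Fasn (790.4 ± 28.5 CPM, SD, n = 3 and 729.7 ± 137 CPM, SD, n = 3) and Acaca (112 ± 8.49 CPM, SD, n = 3 and 111 ± 15.2 CPM, SD, n = 3), with DMSO and 4-OHT in that order, were not called. Srebf1 was lower in 3 of 3 lines and passed with the line as a block (-0.34, adjusted p 0.0128), by DESeq2's Wald test (-0.36, adjusted p 0.0359) and without replicate 3 with 4-OHT (-0.45, adjusted p 0.0161), but not in the edgeR fit of all libraries without the block (-0.33 ± 0.13, adjusted p 0.0861).

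In the second set, flox/flox was compared with flox/+ and with CreER-only organoids, 2 comparisons that share the flox/flox libraries. Against flox/+, 6 genes were called, 3 higher (Scd2, Elovl6, Me1) and 3 lower (Fads1, Fads2, Srebf1), where 46.8% of the 14220 genes tested were called (22.6% higher, 24.3% lower). Against CreER-only, 6 were called, 3 higher (Scd2, Elovl6, Acly) and 3 lower (Fads1, Fads2, Srebf1), where 45.3% of the 14220 genes tested were called (21.9% higher, 23.5% lower). Between flox/+ and CreER-only organoids none of the 10 was called, and 0.113% of genes were. At an unadjusted p under 0.05 Fads2 alone of the 10 passed there (0.27 ± 0.11, adjusted p 0.396), where 1481 of all 14220 genes tested passed. Fads1 had 150.0, 169.6, 102 and 135 CPM in flox/flox, 244, 271, 314 and 321 CPM in flox/+ and 203, 245, 254 and 299 CPM in CreER-only organoids. Its log2 fold change was -1.05 ± 0.16 (adjusted p 0.000262) against flox/+ and -0.84 ± 0.16 (adjusted p 0.00118) against CreER-only. Fads2 had 217, 223, 144 and 194 CPM, 313, 316, 325 and 343 CPM and 245, 275, 274 and 282 CPM in the same order, with -0.74 ± 0.11 (adjusted p 8.09e-05) and -0.47 ± 0.11 (adjusted p 0.00276). For both genes every flox/flox line was below every line of both control groups. Elovl6, which makes stearate, had 309.6, 325, 264 and 323 CPM in flox/flox, above all 219, 218, 209 and 212 CPM of flox/+ and all 208, 203, 242 and 202 CPM of CreER-only lines (0.51 ± 0.07, adjusted p 4.7e-05 and 0.51 ± 0.07, adjusted p 4.68e-05).

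Scd2 reached 4498, 4747, 2423 and 3766 CPM in flox/flox lines against 2654, 2521, 2660.2 and 2832 CPM in flox/+ and 2301, 2456, 3182 and 2728 CPM in CreER-only lines. The flox/flox replicates 1, 2 and 4 lay above all controls and replicate 3 lay among them. Its change (0.53 ± 0.18, adjusted p 0.031 and 0.53 ± 0.18, adjusted p 0.0319) was not called without any 1 of 6 libraries in either comparison, or without the low-count filter. Scd1 overlapped broadly, at 724 ± 238 CPM (SD, n = 4), 544 ± 38.5 CPM (SD, n = 4) and 573 ± 259 CPM (SD, n = 4) in flox/flox, flox/+ and CreER-only lines, and was not called. Srebf1 was slightly lower (-0.19 ± 0.06, adjusted p 0.0229 and -0.22 ± 0.06, adjusted p 0.0106), and that call against flox/+ was lost without any of 4 single libraries. Acly passed against CreER-only (0.38 ± 0.13, adjusted p 0.0327) and Me1 against flox/+ (0.56 ± 0.14, adjusted p 0.00544), and neither passed in the other comparison. The Acly call was lost without any of 5 single libraries. Whether the tissue and organoid effects on Scd1 differ was not tested, since the tables hold different experiments.

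In fetal spheroids Fads1 and Fads2 fell as well. With 4-OHT against DMSO in flox/flox lines 2 of the 10 genes were called, Fads1 and Fads2, both lower, where 19.1% of the 15032 genes tested were called (9.01% higher, 10.0% lower). Fads1 ran from 127 to 201 CPM (median 149) with DMSO to 37.9 to 75.6 CPM (median 46.6) with 4-OHT over 6 lines, lower in 6 of 6 (-1.61 ± 0.16, adjusted p 3.62e-06). Fads2 ran from 178 to 343 CPM (median 211) to 78.1 to 177 CPM (median 109), also lower in 6 of 6 (-0.96 ± 0.23, adjusted p 0.00506). In flox/+ spheroids 4-OHT gave no call among the 10 genes or any other gene (0.0% called). There edgeR gave none of the 10 an unadjusted p under 0.05, where 15 of 15032 genes had one. DESeq2 called none of the 10 either, here, between flox/+ and CreER-only organoids, or between genotypes of spheroids with DMSO. Fads1 had 151, 129, 120.1, 120.2 and 164 CPM with DMSO and 112, 124, 128, 107 and 108 CPM with 4-OHT there. The 4-OHT effect on Fads1 differed between flox/flox and flox/+ lines by -1.37 ± 0.24 (adjusted p 0.0055) on the log2 scale, the single one of the 10 genes to pass, where 1.62% of 15032 genes did. With the line as a block, Fads2 passed as well, at -0.78 (adjusted p 0.00252).

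Between flox/flox and flox/+ spheroids that both received 4-OHT, 5 genes were called, 4 higher (Scd1, Scd2, Elovl6, Fasn) and 1 lower (Fads1), where 10.5% of the 15032 genes tested were called (4.36% higher, 6.13% lower). Scd1 had 162 to 810.0 CPM (median 275) in flox/flox and 84.3, 112, 128, 103 and 105 CPM in flox/+ lines, without overlap (1.76 ± 0.44, adjusted p 0.0131). Scd2 had 1625 to 5516 CPM (median 3519) and 1538, 1762, 1766, 1042 and 1008 CPM (1.31 ± 0.30, adjusted p 0.00764), with overlap. Elovl6 (0.87 ± 0.22, adjusted p 0.0166) and Fasn (0.46 ± 0.14, adjusted p 0.0351) had no overlap, but Fasn lost its call in 12 of 18 alternatives, among them 7 that left out single libraries, DESeq2 size factors (adjusted p 0.0555) and a fit of the 2 groups alone (adjusted p 0.0725). With the replicate number as a block Fasn, Elovl6 and Scd1 lost their calls (adjusted p 0.188, 0.0984 and 0.0718). With DMSO, and so without induced deletion, means of the same lines differed in the same direction. Scd1 had 244 ± 175 CPM (SD, n = 6) in flox/flox and 120.4 ± 36.1 CPM (SD, n = 5) in flox/+ lines, and Scd2 3013 ± 1307 CPM (SD, n = 6) and 1408 ± 241 CPM (SD, n = 5). No gene was called with DMSO (0.0%), and the log2 differences were 1.02 ± 0.43 (adjusted p 0.651) and 1.10 ± 0.30 (adjusted p 0.626). An unadjusted p under 0.05 in edgeR was found for 5 of the 10 genes, these 2 included, and for 1084 of all 15032 genes tested. Within flox/flox lines Scd1 was higher with 4-OHT in 4 of 6 and lower in 2 of 6, and the difference was not called (0.56 ± 0.40, adjusted p 0.364). The sum of the crypt stem and Paneth markers spread from 11.6 to 941 CPM over the flox/flox and from 192 to 7406 CPM over the flox/+ lines with 4-OHT. Stromal marker sums were 0 to 6.37 CPM and 3.17 to 169 CPM with 4-OHT, with 2 of 5 tested markers called lower, and 1.67 to 8.69 CPM and 7.19 to 218 CPM with DMSO, in flox/flox and flox/+ lines in that order. The part of these markers in the differences was not tested. Line names that begin alike were not spread evenly over genotypes. Among lines with the name beginnings found in both genotypes, Fads1 was called with 4-OHT (-1.35, adjusted p 0.0358), and Scd1 was at 1.16 (adjusted p 0.156). That fit held fewer libraries, and the share of all genes called in it is not given here. Calls lost in it therefore cannot be told apart from lower power.

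Spheroids differed from organoids in the level of 9 of the 10 genes, compared as flox/+ lines with 4-OHT, where 37.9% of the 15956 genes tested were called (22.9% higher, 15.0% lower). Me1 was 7.59-fold higher in spheroids, 393 ± 154 CPM (SD, n = 5) against 58.0 ± 10.1 CPM (SD, n = 4). Scd1 was 4.57-fold lower, 106 ± 15.7 CPM (SD, n = 5) against 544 ± 38.5 CPM (SD, n = 4). Elovl6 (2.42-fold), Fads1 (2.22-fold), Fads2 (1.96-fold), Acaca (1.68-fold), Scd2 (1.67-fold), Srebf1 (1.40-fold) and Fasn (1.37-fold) were lower, and Acly was not called. The Scd2 call was lost without any of 6 single libraries. With these levels, 8 of 8 markers of fetal-like epithelium were higher in spheroids (sums of 1446 to 5048 CPM against 268 to 362 CPM), as were 4 of 5 stromal markers tested (sums of 3.17 to 169 CPM against 0.421 to 1.91 CPM), and their part in the differences was not tested. The age of the source cannot be told apart from lines or handling. No difference of the flox/flox against flox/+ effect between spheroids and organoids was called for any of the 10 genes, where 0.0815% of 15956 genes passed. At an unadjusted p under 0.05 2 of the 10 did, Scd1 (1.34 ± 0.59, adjusted p 0.573) and Me1 (-1.06 ± 0.44, adjusted p 0.516), where 1264 of 15956 genes did. DESeq2 called none of the 10 for this difference.

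**Figure D3:**
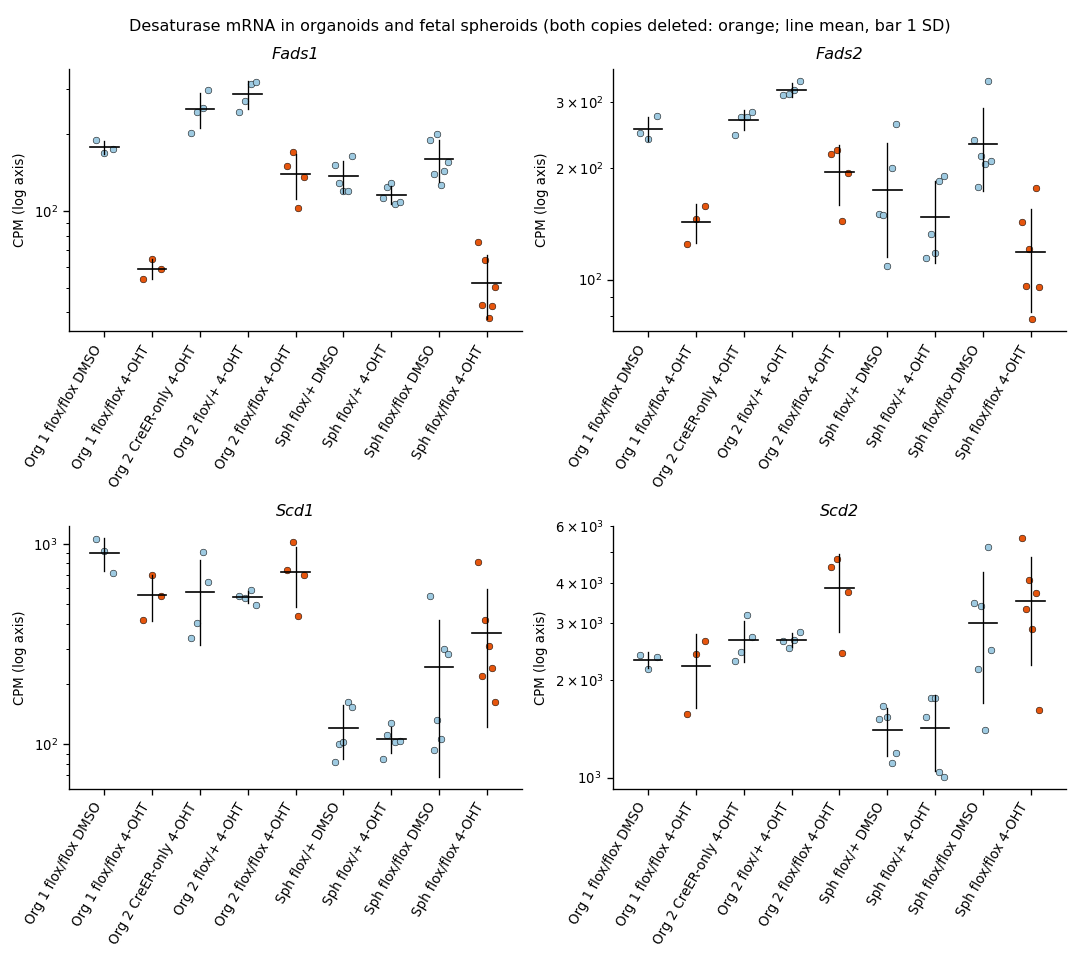
CPM (log axis) of the 4 desaturases in each organoid (Org) and fetal spheroid (Sph) library, with the mean as a line and 1 SD as a bar; orange marks flox/flox cultures with 4-OHT. Fads1 is lower in the orange groups than in their controls without overlap, whereas flox/flox spheroids with DMSO already reach 5166 CPM of Scd2.

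A-485 lowered most of the 10 genes, and the means of Scd1, Fads1 and Fads2 were lower at each higher dose. At 3 uM 6 were called, all lower, where 19.2% of the 13724 genes tested were called (10.8% higher, 8.42% lower). At 5 uM 9 were called, 7 lower and 2 higher, where 49.6% of the 13724 genes tested were called (24.4% higher, 25.1% lower). At 10 uM 8 were called, 7 lower and 1 higher, where 62.0% of the 13724 genes tested were called (29.4% higher, 32.6% lower). The 3 comparisons share the DMSO libraries. Fads1 had 371, 323, 370.2 and 408 CPM in the 4 lines with DMSO, 203, 225, 245 and 198 CPM at 3 uM, 105, 98.4, 90.1 and 67.0 CPM at 5 uM and 54.1, 48.9, 44.3 and 36.9 CPM at 10 uM. Its log2 fold change against DMSO was -0.76 ± 0.14 (adjusted p 0.000879), -2.03 ± 0.14 (adjusted p 5.52e-09) and -3.00 ± 0.15 (adjusted p 2.63e-11). Fads2 had 395, 397, 429 and 400.2 CPM, 216, 235, 257 and 157 CPM, 120.1, 130.5, 141 and 109 CPM and 76.4, 97.4, 63.0 and 71.4 CPM in the same order. It fell by 0.91, 1.70 and 2.39 (log2). In 4 of 4 lines both genes were lower at each step of dose, and no dose overlapped DMSO.

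Scd1, the stearoyl-CoA desaturase of liver and fat, had its main fall above 3 uM. It had 677, 970.0, 896 and 1186 CPM with DMSO, 477, 630.0, 702 and 788 CPM at 3 uM, 311, 402, 496 and 362 CPM at 5 uM and 92.0, 109, 93.6 and 88.2 CPM at 10 uM, again lower at each step in 4 of 4 lines. The change of -0.52 ± 0.17 (adjusted p 0.042) at 3 uM lost its call without any of 5 single libraries, whereas at 10 uM it was -3.28 ± 0.19 (adjusted p 1.23e-10), 9.74-fold. From 3 to 10 uM, 8 of the 10 genes were called, all lower, where 49.3% of the 13724 genes tested were called (22.1% higher, 27.2% lower). Acly was among the 8 but lost its call in 9 of 14 alternatives (log2 fold changes from -0.30 to -0.16). Scd1 fell most in that step (-2.76 ± 0.19, adjusted p 3.21e-09), then Fads1 (-2.24 ± 0.15, adjusted p 2.42e-09) and Fads2 (-1.49 ± 0.15, adjusted p 2.55e-07). Scd2 fell from 3613 ± 272 CPM (SD, n = 4) with DMSO to 1649.5 ± 268 CPM (SD, n = 4) at 10 uM (-1.13 ± 0.12, adjusted p 1.89e-07), Fasn from 877 ± 47.5 CPM (SD, n = 4) to 356 ± 44.3 CPM (SD, n = 4) (-1.30 ± 0.14, adjusted p 2.14e-07) and Acaca from 171 ± 12.4 CPM (SD, n = 4) to 73.7 ± 5.33 CPM (SD, n = 4) (-1.22 ± 0.13, adjusted p 2.53e-07). Each of these 3 was lower at every step in 3 of 4 lines and had no overlap between 10 uM and DMSO.

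The remaining 4 genes took other courses. Me1 rose, from 58.5, 104, 58.2 and 62.5 CPM with DMSO to 122, 135, 102 and 149.8 CPM at 5 uM and 115, 139, 121 and 150.0 CPM at 10 uM (0.84 ± 0.18, adjusted p 0.00068 and 0.89 ± 0.18, adjusted p 0.000278), higher in 4 of 4 lines at each dose. With the line as a block Me1 also passed at 3 uM (0.50, adjusted p 0.0084) and from 3 to 10 uM (0.41, adjusted p 0.013), and Elovl6 at 3 uM (0.36, adjusted p 0.0211). Elovl6 was higher at 5 uM, with 185, 215, 247 and 336 CPM against 154, 185, 179.7 and 171 CPM (0.51 ± 0.16, adjusted p 0.0132), and had 145, 149, 146 and 179 CPM at 10 uM, which overlapped DMSO. Its call at 5 uM was lost without replicate 4 at 5 uM (0.32, adjusted p 0.0674) or replicate 1 with DMSO. From 3 to 10 uM Elovl6 fell (-0.54 ± 0.16, adjusted p 0.00957). Acly fell by 0.40 at 5 uM and 0.37 at 10 uM, without overlap with DMSO. Srebf1 had 254 ± 18.5 CPM (SD, n = 4) with DMSO and 199.9 ± 25.7 CPM (SD, n = 4) at 10 uM and was not called at any dose, although with the line as a block it passed at 3 uM, at -0.36 (adjusted p 0.0299), and at 10 uM, at -0.36 (adjusted p 0.0107).

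**Figure D4:**
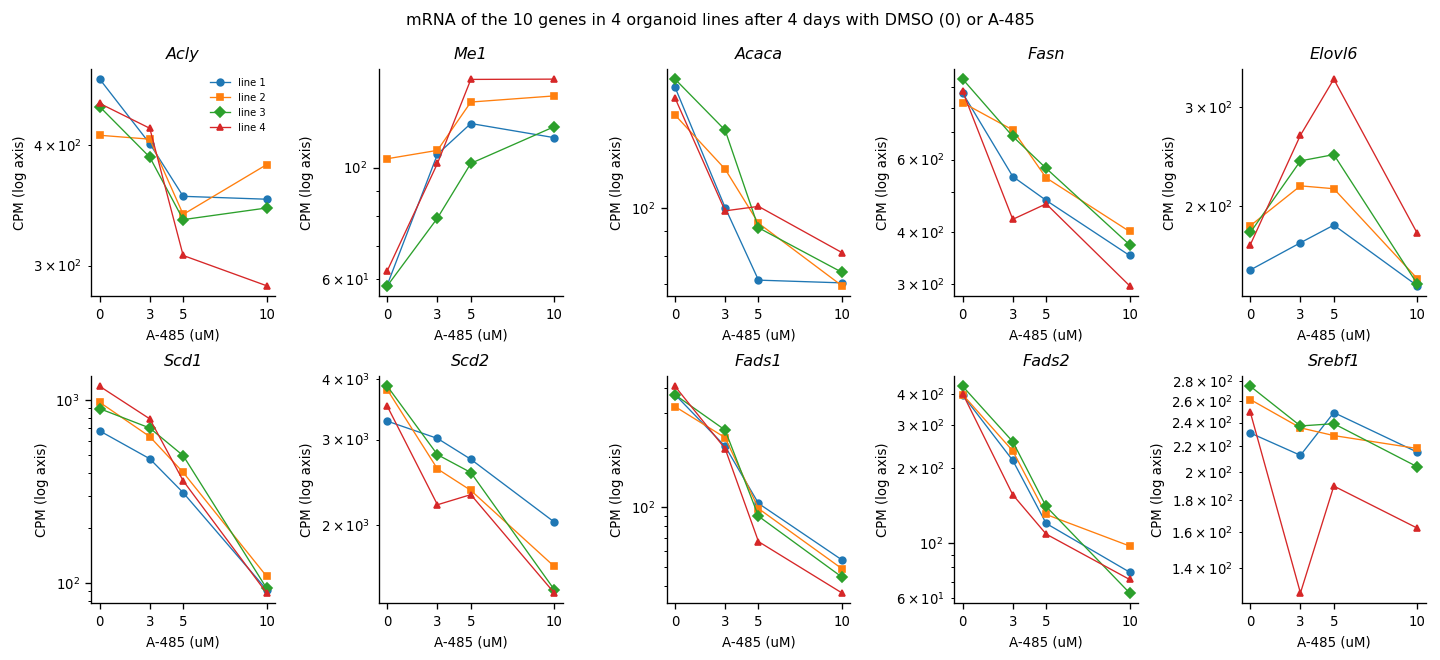
CPM (log axis) of the 10 genes against A-485 concentration (0 is DMSO, then 3, 5 and 10 uM), 1 line and symbol for each of 4 organoid lines. Scd1, Fads1 and Fads2 descend at every step in all 4 lines, Me1 is above its DMSO value at every dose, and Elovl6 peaks at 3 or 5 uM in each line.

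In the same libraries, the sum of the 8 crypt stem and Paneth markers was 7633 to 10114 CPM with DMSO, 1137 to 2109.7 CPM at 3 uM, 394 to 455 CPM at 5 uM and 53.5 to 89.5 CPM at 10 uM, with 8 of 8 markers at or above 1 CPM with DMSO and 4 of 8 at 10 uM. The 14 enterocyte markers summed to 9778 to 18963 CPM and 3229 to 5804 CPM with DMSO and 10 uM. The stem and Paneth sum was also lower after deletion, at 2146 to 3047 CPM in flox/flox against 8284 to 9525 CPM in flox/+ organoids. In the first organoid set it was 263 to 405 CPM with 4-OHT and 1840 to 2242 CPM with DMSO. The 8 fetal-like markers summed to 187 to 287 CPM with DMSO and 1384 to 1650 CPM at 10 uM A-485. In the first set they summed to 532 to 847 CPM with DMSO and 878 to 1782 CPM with 4-OHT. In the second set flox/flox (151 to 564 CPM) and flox/+ organoids (268 to 362 CPM) overlapped in that sum. Summed immune markers reached at most 8.14 CPM in any organoid library of the second set or the inhibitor series. The part of these shifts in the falls of Fads1 and Fads2 was not tested. Ep300, which encodes p300, was higher at 5 uM and 10 uM (0.84 and 0.94, log2) but was not called at 3 uM (0.43, adjusted p 0.0824). It was also higher after deletion in Rosa26-CreER villi (1.26), the first organoid set (1.31) and flox/flox spheroids (1.28). Crebbp, which encodes CBP, the other target of A-485, was not called at 3, 5 or 10 uM (0.07, 0.32 and 0.33). After deletion Crebbp was called higher in the same comparisons as Ep300 (0.97, 1.19 and 1.39, in that order).

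**Figure D5:**
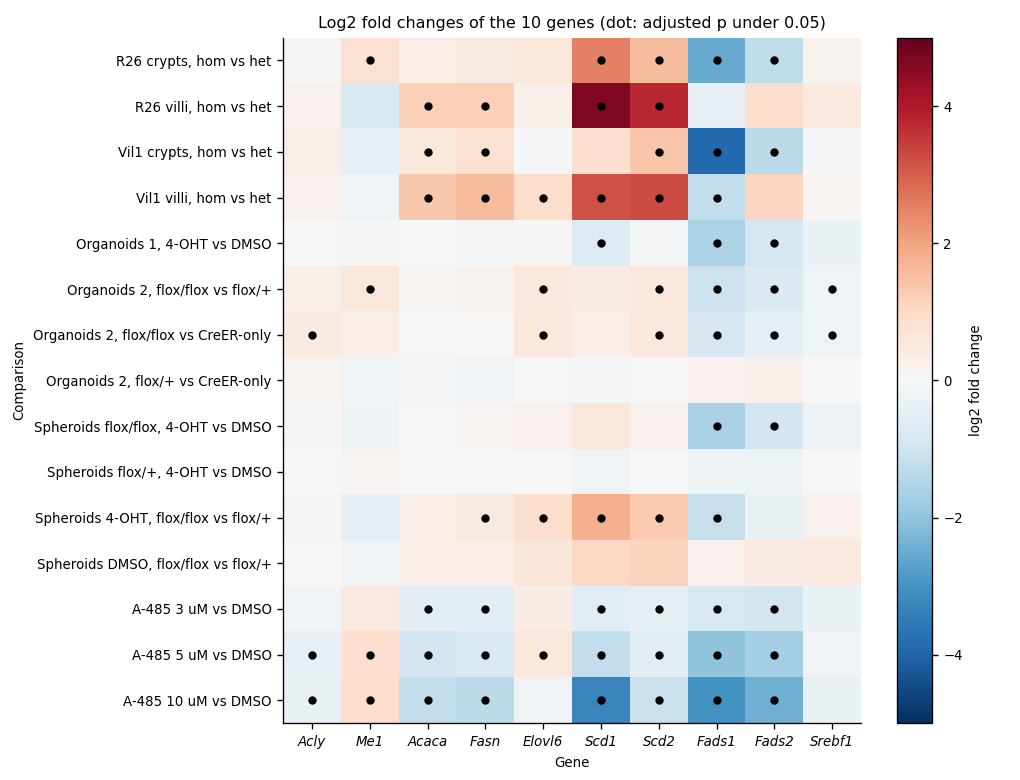
Log2 fold change (colour, red higher and blue lower) of the 10 genes in 15 comparisons, with a dot where the adjusted p was under 0.05. Fads1 is dotted blue in 6 of 7 comparisons that set loss of both copies against controls (the 4 tissue rows, the first organoid set, flox/flox against flox/+ organoids and flox/flox spheroids), and Scd2 dotted red in 5 of them. The rows of flox/flox against CreER-only organoids and of flox/flox against flox/+ spheroids with 4-OHT are outside that count.

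Set side by side over those 7 comparisons, of which the 4 in tissue come from 2 sets of animals that gave both crypts and villi, Fads1 was called lower in 6 and was below 0 in 7, and Fads2 was called lower in 5. Scd2 was called higher in 5, Fasn and Acaca in 3 each, and Scd1 higher in 3 and lower in 1. Elovl6 and Me1 were called higher in 2 each, Srebf1 lower in 1 and Acly in none. The Scd1 rise in Rosa26-CreER crypts lost its call in 9 of 17 alternatives. These tallies leave out flox/flox against CreER-only organoids and flox/flox against flox/+ spheroids with 4-OHT. Each shares its flox/flox libraries with a comparison among the 7. In both, Fads1 was called lower and Scd2 higher. Acly was called higher in the first, and Fads2 was not called in the second. With 10 uM A-485, which was given to organoids, Fads1 (-3.00), Fads2 (-2.39) and Scd1 (-3.28) fell. The same 3 genes were called lower with 4-OHT in organoids of the first set (-1.58, -0.84 and -0.70). That Scd1 call was lost in 5 of 12 alternatives. In the second organoid set, and in flox/flox spheroids with 4-OHT against DMSO, Scd1 was not called, and its means were higher with both copies deleted. Between flox/flox and flox/+ spheroids with 4-OHT Scd1 was called higher (1.76), a call lost in 2 of 18 alternatives. Its means with DMSO differed in the same direction there, without a call. The first set and the inhibitor series share a line by name. Scd2 (-1.13), Fasn (-1.30) and Acaca (-1.22) fell with A-485, were not called in organoids of the first set and rose in villi after deletion. In flox/flox organoids of the second set Scd2 was called higher, but lost the call in 8 of 14 alternatives against flox/+ and 9 of 14 against CreER-only. These are values of separate experiments, and the difference between them was not tested.

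Genes of sterol synthesis and uptake, driven by SREBP-2, rose in tissue. Of 20 such genes, 9 of 20 were called higher in Rosa26-CreER crypts, 14 of 20 in their villi, 16 of 20 in Vil1-CreER crypts and 18 of 20 in Vil1-CreER villi, and none lower. Of all genes tested, 8.63%, 15.0%, 11.6% and 20.9% were called higher in these comparisons, in that order. The list's median log2 fold changes were 0.76, 1.55, 0.79 and 1.86, against 0.04, -0.01, 0.01 and 0.05 over all tested genes. In organoids of the first set none rose and 5 of 20 fell, where 18.2% of all genes were called higher and 17.2% lower. Against flox/+ in the second set 10 of 20 rose, with a median of 0.27, where 22.6% of all genes were called higher. Against CreER-only 15 of 20 rose, with a median of 0.42, where 21.9% of all genes were called higher. In flox/flox spheroids the median was -0.06 with 4-OHT against DMSO. Against flox/+ spheroids with 4-OHT, 8 of 20 were higher (median 0.71), where 4.36% of all genes were called higher. With DMSO the median was 0.73, and no gene tested was called. With A-485 12 of 20, 14 of 20 and 16 of 20 fell at 3, 5 and 10 uM, and 2 of 20 rose at 5 uM and 2 of 20 at 10 uM. Of all genes, 8.42%, 25.1% and 32.6% were called lower at these doses, and 24.4% and 29.4% higher at 5 and 10 uM. The list's median at 10 uM was -1.24, against -0.05 over all genes.

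Among 20 regulators of lipogenesis, 6 of 20 rose and 2 of 20 fell in Vil1-CreER villi, with a median of -0.08, where 20.9% of all genes tested were called higher and 21.6% lower. The largest rises there were Insig1 (1.83 ± 0.19), which holds SREBP in the endoplasmic reticulum, and Srebf2 (1.47 ± 0.18), which encodes SREBP-2. The same 2 genes led in Rosa26-CreER villi (1.19 ± 0.35 and 1.19 ± 0.19), where 3 of 20 rose and 5 of 20 fell, against 15.0% and 18.2% of all genes. The genes that fell include Pparg, a nuclear receptor of fat storage (-1.06 ± 0.14). In crypts 3 of 20 rose and 2 of 20 fell with Rosa26-CreER (8.63% and 11.6% of all genes), and 3 of 20 and 5 of 20 with Vil1-CreER (11.6% and 17.7%). In Vil1-CreER crypts Mlxipl, the carbohydrate-response factor ChREBP, fell most (-1.38 ± 0.16). Mlxipl also fell in flox/flox against flox/+ organoids (-0.80 ± 0.10) and led the falls with A-485, from -1.64 ± 0.34 at 3 uM to -5.41 ± 0.41 at 10 uM. At 10 uM 9 of 20 regulators rose and 10 of 20 fell (29.4% and 32.6% of all genes), among the latter Nr1h3, the liver X receptor alpha that activates Srebf1 (-2.33 ± 0.30). Insig1 fell in the first organoid set (-1.01 ± 0.17), opposite to villi.

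Other elongases, desaturases and synthesis genes (24 listed, 18 to 20 tested) were split. In Rosa26-CreER villi 5 of 18 rose, led by Elovl5 (1.33 ± 0.11), an elongase of polyunsaturated fatty acids, and Hacd1 (1.00 ± 0.19), a dehydratase of the elongation cycle, and 3 of 18 fell, against 15.0% higher and 18.2% lower of all genes. In Vil1-CreER villi 8 of 18 rose, led by the same 2 genes (1.30 ± 0.24 and 1.30 ± 0.23), and 1 of 18 fell, Degs1 (-0.71 ± 0.18), which makes ceramide, against 20.9% and 21.6% of all genes. Acacb, the mitochondrial form of acetyl-CoA carboxylase, fell in both crypt comparisons (-1.35 ± 0.33 and -1.87 ± 0.29) and at 10 uM A-485 (-4.60 ± 0.98). Fads3, a relative of Fads1 and Fads2, fell with 4-OHT in flox/flox organoids (-1.39 ± 0.24) and spheroids (-1.44 ± 0.23), but rose at 10 uM A-485 (1.52 ± 0.16). Elovl1, which makes very long saturated chains, rose at that dose too (1.54 ± 0.14). The list's median was 0.00 in Rosa26-CreER crypts, 0.55 in Vil1-CreER villi and -0.12 at 10 uM.

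Of 12 genes that supply acetyl-CoA or NADPH, Acss1, a mitochondrial acetyl-CoA synthetase, had the largest fall in all 4 tissue comparisons but Vil1-CreER villi, at -1.49 ± 0.09, -2.31 ± 0.21 and -1.15 ± 0.09. It fell too in the first organoid set (-1.13 ± 0.13), flox/flox spheroids (-1.32 ± 0.22) and at 10 uM A-485 (-4.85 ± 0.41). The cytosolic Acss2 fell with A-485 as well (-2.23 ± 0.13 at 10 uM). Aacs, which feeds ketone bodies into lipid synthesis, rose in both villus comparisons (1.92 ± 0.39 and 1.56 ± 0.30). At 10 uM A-485 9 of 11 fell and 1 of 11 rose, with a median of -0.67, where 32.6% of all genes fell and 29.4% rose.

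Of 22 fatty acid oxidation genes, 7 of 22 fell and 1 of 22 rose in Rosa26-CreER villi and 9 of 22 fell and 1 of 22 rose in Vil1-CreER villi, the risen gene being Acadl, a long-chain acyl-CoA dehydrogenase (1.38 ± 0.24 and 1.11 ± 0.13). Of all genes, 18.2% and 21.6% were lower there. In the first organoid set 15 of 22 oxidation genes fell and none rose, and in flox/flox spheroids 15 of 22 fell and none rose, with medians of -0.51 and -0.79 against 0.03 and -0.02 over all genes, of which 17.2% and 10.0% were called lower. Of 20 acyl-CoA synthetase and glycerolipid genes, Acsl3, which activates fatty acids for lipid droplets, rose in both villus comparisons (1.12 ± 0.25 and 2.20 ± 0.30), whereas Mgll, which breaks down monoglycerides, fell (-2.23 ± 0.69 and -4.26 ± 0.47). Dgat2 and Mogat2, enzymes of triglyceride assembly, fell with 4-OHT in flox/flox organoids (-1.87 ± 0.24 and -1.66 ± 0.26) and spheroids (-2.48 ± 0.42 and -3.24 ± 0.81). The counts for this list were 4 of 20 higher and 5 of 20 lower in Rosa26-CreER villi, 6 of 20 and 7 of 20 in Vil1-CreER villi, and 6 of 20 and 11 of 20 at 10 uM A-485. The shares of all genes were 15.0% and 18.2%, 20.9% and 21.6%, and 29.4% and 32.6%.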

How the data were processed

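RNA was sequenced from poly(A)-selected, strand-marked libraries, per the labels. The authors deposited raw read counts per gene in 4 tables, with each gene's length in bases as another column. The submitters' processing notes name HISAT2 2.0.5 and GRCm38. The counting tool and its strand setting are not given in the sources used here. Total counts were 8652040 to 37611126 per library.

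Each comparison was fitted on all genes with edgeR 4.0.16 (R 4.3.3): filterByExpr, TMM scaling, a robust quasi-likelihood F-test, and p-values adjusted by Benjamini and Hochberg over the genes tested, with calls at 0.05. Groups were taken from the labels. Levels are CPM after TMM scaling within an experiment. The standard error of a log2 fold change is its size divided by the square root of F. On simulated counts for Rosa26-CreER villi (13579 genes), 55.8% of genes changed by a log2 of 1 and 87.0% of those changed by 2 were recovered. In a simulation of the 2 flox/flox spheroid groups alone (13430 genes) the shares were 25.8% and 74.0%. The reported spheroid comparisons were fitted on all spheroid groups together (15032 genes), for which recovery was not simulated.

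The 10 members, the lists of other genes and the tests were chosen with earlier results of these data known. Other genes were named by rule: the 2 called genes with the largest change in each direction of each list, from which the text takes some, and a few are not reported here; the alternatives tried were DESeq2 1.42.0, other scaling, no low-count filter, no mitochondrial genes, other sets of groups, replicate blocks, covariates and leaving out each library. Organoid and spheroid lines were treated with both agents or with each dose, and crypts and villi share animals by the animal number in the library names, so that these samples are paired by origin (1 Rosa26-CreER and 3 Vil1-CreER homozygous villus libraries have no crypt library). Deviations from group means of same-line samples correlated at 0.318 to 0.501 in the first organoid set, 0.385 to 0.783 in flox/flox and 0.626 to 0.857 in flox/+ spheroids.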

Additional observations from a re-analysis of the deposited data

Results flagged for a closer look

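Single libraries stood apart from the rest of their group in 11 of the 180 sets of a gene and a group of 4 to 6 libraries that were examined, and chance alone marks about 1 in 20. Scd2 had 420.0 CPM in replicate 1 of the heterozygous Rosa26-CreER crypts, against 154 to 228 CPM in the others, and the crypt groups overlapped through this library. Fads1 had 7.89 CPM in replicate 3 of the heterozygous Vil1-CreER villi, against 4.53 to 5.06 CPM, and its call in villi was lost without that library. Fasn reached 135 CPM in replicate 4 of the homozygous Vil1-CreER villi (others 39.5 to 73.4 CPM) and 427 CPM in replicate 2 of the flox/+ spheroids with DMSO (others 290.2 to 306 CPM). Me1 reached 86.1 CPM in replicate 1 of the homozygous Vil1-CreER villi (others 28.5 to 44.8 CPM) and 104 CPM in replicate 2 of the DMSO organoids of the inhibitor series (others 58.2 to 62.5 CPM). Its level of 119.6 CPM in replicate 3 of the flox/flox spheroids with DMSO was far under the 328 to 451 CPM of the other lines. Fads2 had 429 CPM in replicate 3 of the DMSO organoids of the inhibitor series (others 395 to 400.2 CPM) and 343 CPM in replicate 5 of the flox/flox spheroids with DMSO (others 178 to 238 CPM). Elovl6 had 179 CPM in replicate 4 at 10 uM A-485 (others 145 to 149 CPM) and 242 CPM in replicate 3 of the CreER-only organoids (others 202 to 208 CPM).

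The effect of genotype differed between villi and crypts of Rosa26-CreER mice for Scd2 (2.32 on the log2 scale), Acaca (0.95), Me1 (-1.43), Fads1 (2.24) and Fads2 (2.24), and of Vil1-CreER mice for Scd2 (1.90), Fads1 (2.67) and Fads2 (2.41). The effect of 4-OHT on Fads1 differed between flox/flox and flox/+ spheroids (-1.37). These were tested as interaction terms.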

How the results depend on the processing

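Of 109 called changes of the 10 genes, 88 kept the call under every alternative run, and none of 1704 alternative values changed sign. The call was lost in 98 of them, and 378 of 386 alternative counts of called genes were within 1.5 times of the main count. The count in Rosa26-CreER crypts (5) was 3 to 6 when single libraries were left out, with 3 without homozygous replicate 1 or heterozygous replicate 5. In Vil1-CreER crypts (5) it was 3 with villi in the same fit. Between flox/flox and flox/+ spheroids with 4-OHT (5) it was 2 with the replicate number as a block. Among lines with shared name beginnings, an alternative chosen after seeing the data and fitted on fewer libraries, it was 1. For the villus-crypt difference in Vil1-CreER mice (3) it was 6 with the animal as a block and 3 to 5 without single libraries, the 5 being without homozygous villus replicate 5. For the 4-OHT effect by spheroid genotype (1) it was 2 with the line as a block. The cause of these shifts was not tested, and the shares of all genes called in these alternative fits are not given here.

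For the other samples it is not stated whether replicate numbers pair them. In Rosa26-CreER crypts the correlation of same-numbered libraries was 0.037 to 0.599, and 2 of 4 pairs correlated best with their own number. In Rosa26-CreER villi 3 of 5 pairs did (-0.164 to 0.254), and in flox/flox against flox/+ organoids 0 of 4. With that number as a block the counts were 5 in Rosa26-CreER crypts, 6 in their villi, 5 and 6 in Vil1-CreER crypts and villi, and 4 and 5 in flox/flox organoids of the second set against flox/+ and CreER-only. The shares of all genes called with that block are not given here. Beyond the changes given with the results, the blocks by line or animal changed no other call. With the series of the animal number as a covariate, no call of the 10 genes in Rosa26-CreER crypts or villi was lost. Without TMM scaling, 168 of 210 group means moved by less than 1 SD. On simulated data changes of a log2 of 1 were often missed, in flox/flox spheroids fitted alone more than in villi.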

Other observations

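In heterozygous Vil1-CreER mice, Scd1 varied widely between animals. In the 4 animals it had 42.9, 144, 17.4 and 1.89 CPM in crypts and 10.7, 15.5, 2.96 and 1.63 CPM in villi, in the same order of animals, so that the animal with the highest crypt level also had the highest villus level and the animal with the lowest had the lowest in both. The values come from 4 animals and were not tested.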
